A study of Rattus norvegicus with 16 samples.

Results

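Tubular injury markers were examined in bulk RNA-Seq of the rat kidney. They were 5 genes of 32623 in the tables, chosen by name: Havcr1 (ENSRNOG00000007243), which encodes kidney injury molecule 1 (KIM-1), Lcn2 (ENSRNOG00000013973), which encodes neutrophil gelatinase-associated lipocalin (NGAL), Spp1 (ENSRNOG00000043451), which encodes osteopontin, Clu (ENSRNOG00000016460), which encodes clusterin, and Cd44 (ENSRNOG00000006094), a cell surface receptor. The choice was made with earlier results of these data known, so the shares of all genes given below are a background and not a test. All 5 passed the filter on low counts, as did 14628 of the 32623 genes. The deposited tables hold gene IDs without symbols. Each symbol was tied to its ID because the TPM of that ID, and of no other, equalled the values listed under the symbol in a table of the study in all 7 libraries that table covers. TPM is a relative transcript abundance scaled for gene length, so that levels of different genes can be compared. Differences of TPM between groups include a shift of the median gene, given at the end, whereas the fold changes below were fitted with scaling between libraries.

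The 16 libraries came from Sprague-Dawley rats, with 4 libraries in each of 4 groups. Control rats had a sham operation, whereas the other 3 groups had their left kidney removed and then received deoxycorticosterone acetate (DOCA), a mineralocorticoid, with salt in the drinking water. DOCA rats received vehicle by gavage, and finerenone and spironolactone rats received, beside DOCA and salt, one of these blockers of the mineralocorticoid receptor. A comparison with control therefore covers nephrectomy, DOCA and salt together, which cannot be told apart. The doses of the drugs differed, so their comparison is one of the treatments as given. The age label reads 6 weeks, which is also the length of DOCA treatment in the study's methods for most rats, and which of the 2 the label means is not given. The rats were male per the study's methods, and total RNA of whole kidney tissue was used, so fewer cells of a type and less RNA per cell cannot be told apart. Of 11 tubule, 2 podocyte and 2 endothelial marker genes listed to check the tissue, 0 could be tied to an ID.

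KIM-1 is a membrane protein of the proximal tubule that takes up dead cells and is shed into urine after injury, and NGAL is a secreted lipocalin that binds iron-carrying siderophores and is made by injured distal tubules and by neutrophils. Osteopontin is a secreted phosphoprotein that binds integrins and CD44. Clusterin is a secreted chaperone of damaged proteins, and CD44 is a receptor for hyaluronan and osteopontin that appears on injured tubule cells and on leukocytes.

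The sequences before the start sites of these genes are shown because all 5 members were higher in DOCA than in control libraries, although their profiles differed in size. RefSeq promoters (assembly GRCr8) were found for 4 of the 5 genes, and Clu was not among them. The last base of each line lies next to the annotated start, and each line reads 5′ to 3′ on the strand of its gene over 250 bases. Capitals mark matches to any of 7 short motifs, searched on both strands. Havcr1 lies on the plus strand at chr10:31629528-31629777, and Lcn2 (chr3:36081781-36082030), Spp1 (chr14:5619805-5620054) and Cd44 (chr3:109699425-109699674) lie on the minus strand.
Havcr1: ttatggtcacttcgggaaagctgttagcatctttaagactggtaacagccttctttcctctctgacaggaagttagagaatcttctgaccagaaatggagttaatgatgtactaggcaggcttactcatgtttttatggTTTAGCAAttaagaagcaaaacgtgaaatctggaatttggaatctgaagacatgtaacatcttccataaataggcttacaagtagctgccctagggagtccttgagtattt
Lcn2: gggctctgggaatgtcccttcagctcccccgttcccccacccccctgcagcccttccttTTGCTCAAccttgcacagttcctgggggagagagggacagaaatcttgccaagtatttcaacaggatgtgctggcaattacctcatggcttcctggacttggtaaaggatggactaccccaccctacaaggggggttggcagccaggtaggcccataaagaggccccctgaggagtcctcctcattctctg
Spp1: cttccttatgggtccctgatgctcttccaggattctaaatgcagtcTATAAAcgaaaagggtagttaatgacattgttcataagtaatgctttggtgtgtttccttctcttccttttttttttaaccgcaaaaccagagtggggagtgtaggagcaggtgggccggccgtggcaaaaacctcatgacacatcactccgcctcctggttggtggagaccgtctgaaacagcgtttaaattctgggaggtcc
Cd44: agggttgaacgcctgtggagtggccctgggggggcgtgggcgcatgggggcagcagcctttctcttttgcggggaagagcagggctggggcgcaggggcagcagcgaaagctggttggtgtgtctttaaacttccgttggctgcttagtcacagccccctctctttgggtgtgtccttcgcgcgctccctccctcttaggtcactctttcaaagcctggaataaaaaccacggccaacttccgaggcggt

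The C/EBP motif TTGCNNAA was found in Havcr1, 111 to 104 bases before the start, and in Lcn2, 191 to 184 bases before it, and 9.22% of 33469 promoters of this length hold it. TATAAA was found in Spp1, 204 to 199 bases before the start, against 12.9% of promoters. The AP-1 motif TGANTCA (6.34% of promoters), the STAT motif TTCNNNGAA (7.67%), the RUNX motif TGTGGT (14.5%), the steroid receptor hexamer TGTTCT (17.5%) and the GC box GGGCGG (30.5%) were found in 0 of the 4 windows, and Cd44 held none of the 7 motifs. These are matches of letters, not sites of binding.

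Total counts ranged from 7063158 to 8056929 in 15 libraries and were 10932887 in spironolactone replicate 4. A count of 3 in a library corresponded to 0.243 to 0.478 CPM (counts relative to a TMM-scaled library total of 1000000). A table of the study on 4 genes covers 14 of the libraries by exact TPM. The other 2, replicate 4 of DOCA and replicate 4 of spironolactone, were taken as the outliers that the study set aside. They were left out of the tests but are shown in all levels. DOCA replicate 4 differed from the other DOCA libraries with a chi-square per gene of 30.6 to 42.2, against 6.51 to 10.1 among those 3. Spironolactone replicate 4 did not stand apart by this measure, at 11.6 to 14.4 against 9.78 to 17.3 among the other spironolactone libraries. Each library also carries a code number of unstated meaning. Control replicates 2 and 3 share number 12, and each group holds 2 or 3 numbers that occur in no other group, so groups cannot be compared at 1 number.

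Havcr1 was low in control kidneys and was the member with the largest fold difference. Its level was 2.68, 0.29, 0.35 and 3.03 TPM in control replicates 1 to 4, from 78, 8, 10 and 80 counts. It was 98.9, 78.2, 75.2 and 169 TPM in the DOCA libraries. The groups did not overlap, and the controls themselves fell apart, with replicates 2 and 3 below replicates 1 and 4. Finerenone libraries had 11.2, 21.6, 21.9 and 25.5 TPM, between both groups and overlapping neither. Spironolactone libraries had 114, 259, 92.6 and 111 TPM, within or above the range of DOCA, and replicate 2 stood highest of all 16. The mean was 1.59 TPM ± 1.47 (SD, n = 4) in control, 105 ± 43.6 in DOCA, 20.1 ± 6.18 in finerenone and 144 ± 76.9 in spironolactone.

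Lcn2 was also lowest in control and next lowest in finerenone libraries. Control libraries had 6.83, 3.34, 2.03 and 8.64 TPM, and DOCA libraries had 96.5, 128, 171 and 835 TPM. DOCA replicate 4 alone was far above the other 15 libraries. In finerenone the values were 24.1, 45.2, 30.3 and 65.9 TPM, again between control and DOCA with no overlap. Spironolactone libraries, at 141, 311, 109.9 and 145 TPM, overlapped DOCA.

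Spp1 was the most abundant of the 5 genes by TPM in all libraries but control replicate 3, where Clu was slightly higher. It stood at 258, 127, 157 and 345 TPM in control and at 7520, 8207, 8274 and 19028 TPM in DOCA. By TPM it was the 355th to 870th gene of a control library, and the 7th to 13th of a DOCA library. As a share of all TPM it took 0.0127% to 0.0345% in control, 0.752% to 1.90% in DOCA, 0.125% to 0.286% in finerenone and 0.580% to 1.42% in spironolactone libraries. Finerenone libraries had 1254, 2429.9, 1488 and 2860.1 TPM, and spironolactone libraries had 8047, 14217, 5801 and 8833 TPM. Every finerenone library thus lay below every DOCA and spironolactone library and above every control.

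Clu was already abundant in control kidneys, and its levels there were of the same order as those of Spp1. Control libraries had 173, 72.7, 160 and 120 TPM. DOCA libraries had 894, 1034, 1091 and 1986 TPM, with replicate 4 again highest. Finerenone libraries lay at 292, 375, 258 and 365 TPM, above all controls and below all DOCA libraries. Spironolactone libraries had 1004, 1519, 682 and 955 TPM, which overlapped DOCA.

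Cd44, the receptor for osteopontin among the members, was the only one in which DOCA replicate 4 did not stand apart in TPM. Its level was 1.48, 2.27, 1.76 and 4.31 TPM in control, and 34.0, 18.8, 31.3 and 31.3 TPM in DOCA. The spread within DOCA came from replicate 2. Finerenone libraries had 8.93, 10.6, 9.25 and 7.76 TPM, the tightest group of the 4 relative to its mean, at 9.13 ± 1.17 (SD, n = 4). Spironolactone libraries had 33.8, 36.3, 23.4 and 34.8 TPM, overlapping DOCA.

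**Figure D1:**
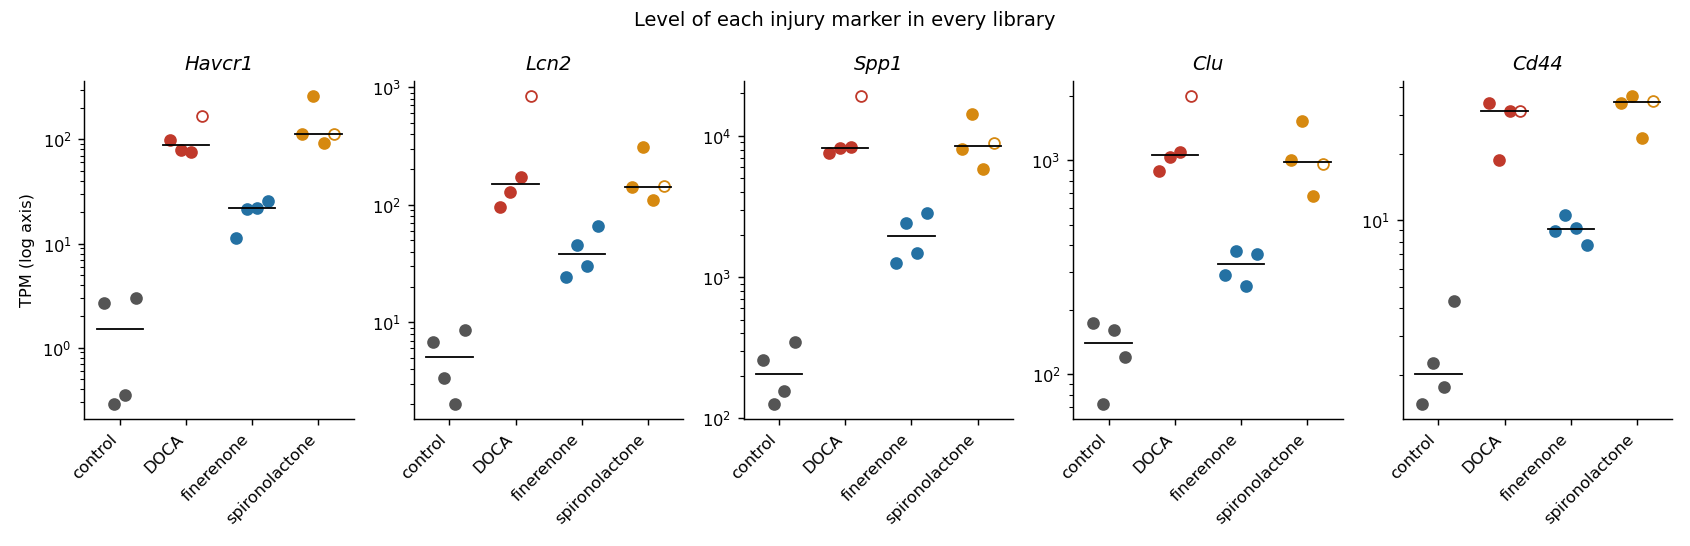
TPM of each marker on a log axis in 4 control, 4 DOCA, 4 finerenone and 4 spironolactone libraries, with replicates 1 to 4 from left to right, the median as a line, and open circles for the 2 libraries outside the tests. Finerenone libraries sit between control and DOCA for all 5 genes, whereas spironolactone libraries overlap DOCA.

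All 5 markers rose in DOCA compared with control, where 15.4% of the 14628 genes tested were called higher (edgeR's quasi-likelihood test, Benjamini-Hochberg adjusted p under 0.05 and a log2 fold change of at least 0.5). Havcr1 rose by 5.20 ± 0.67 (SE) on the log2 scale, a 36.7-fold difference (adjusted p = 0.000173). Spp1 and Lcn2 followed, with Spp1 at 4.66 ± 0.48 (adjusted p = 2.92e-05) and Lcn2 at 4.15 ± 0.57 (adjusted p = 0.000238). Cd44 rose by 3.03 ± 0.25 (adjusted p = 5.96e-07), the smallest p of the 5, and Clu by 2.43 ± 0.33 (adjusted p = 0.000158). The CPM of all 5 also did not overlap between the 4 DOCA and the 4 control libraries, as for 18.1% of genes. The size of the Havcr1 difference depended on the controls used, with a log2 fold change of 7.54 against the 2 controls of number 12 alone and 4.33 without them. Without control replicates 2 and 3, the log2 fold change of Lcn2 was 3.54 and that of Spp1 4.19. With all 16 libraries in the fit, Lcn2 had a log2 fold change of 5.45 and the other 4 markers stayed called as well.

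Finerenone rats had lower levels of the markers than DOCA rats, and 3 of the 5 passed the test, where 7.7% of genes were called lower. Cd44 fell by 1.14 ± 0.22 (SE) on the log2 scale (edgeR, adjusted p = 0.00212), Clu fell by 1.24 ± 0.32 (adjusted p = 0.0186) and Spp1 fell by 1.58 ± 0.43 (adjusted p = 0.0259). Havcr1 had a log2 fold change of -1.66 ± 0.55 (adjusted p = 0.0578) and Lcn2 one of -1.27 ± 0.46 (adjusted p = 0.0788), so these were not called although their point estimates were no smaller than those of Cd44. The CPM of all 5 lay lower in each of the 4 finerenone than in each of the 4 DOCA libraries, as for 12.5% of genes. With all 16 libraries all 5 were called, with log2 fold changes of -2.04 for Havcr1 (adjusted p = 0.0172) and -2.57 for Lcn2 (adjusted p = 0.0209). The count was 1, Cd44, without DOCA replicate 2 and also without DOCA replicate 3, where Spp1 and Clu had adjusted p between 0.0563 and 0.0702. The call of Spp1 was also lost without DOCA replicate 1 (adjusted p = 0.0555), finerenone replicate 1 (0.0575) or finerenone replicate 3 (0.0633). Havcr1 was called without control replicate 2 (adjusted p = 0.0446) or control replicate 3 (0.0438), and all 5 were called without spironolactone replicate 2. In an edgeR fit of only these 2 groups Havcr1 was called as well (adjusted p = 0.00767). Over all 34 alternatives, Havcr1 was called in 13, with adjusted p from 0.00224 to 0.278 by the test of each, and Lcn2 in 8.

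The markers also remained above control under finerenone. All 5 were called higher, where 3.33% of genes were called higher, and in 6.19% of genes the 4 finerenone libraries lay above the 4 controls, as they did for all 5 markers. The log2 fold change was 3.54 ± 0.64 (SE) for Havcr1 (edgeR, adjusted p = 0.0115), 3.08 ± 0.44 for Spp1 (adjusted p = 0.00321) and 2.88 ± 0.57 for Lcn2 (adjusted p = 0.0165). Cd44 was 1.90 ± 0.25 higher (adjusted p = 0.000798) and Clu 1.19 ± 0.30 higher (adjusted p = 0.0453). Without control replicate 2 and without control replicate 3, the calls of Lcn2 (adjusted p = 0.0536 and 0.0515) and Clu (0.06875 and 0.0878) were lost, and without both of them Spp1 (adjusted p = 0.04095) and Cd44 (adjusted p = 0.0270) were the 2 called. The call of Clu was the least firm. It was lost in 18 of 34 alternatives, among them 10 of the 14 in which 1 library was left out (control replicates 2 to 4, DOCA replicates 1 to 3, finerenone replicates 1, 2 and 4, or spironolactone replicate 1), with adjusted p between 0.0579 and 0.118 in those 10. With all 16 libraries, Clu (adjusted p = 0.0660) and Lcn2 (adjusted p = 0.110) were not called.

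No marker passed the test between spironolactone and DOCA rats. Of the 5, 0 were called, with 0 of 14628 genes called in edgeR (0%), 578 at an unadjusted p under 0.05, and 11 called by DESeq2. The log2 fold change was 0.86 for Havcr1 with a 95% interval from -0.44 to 2.17, and 0.51 for Lcn2 with an interval from -0.55 to 1.57. It was 0.22 for Spp1 (-0.81 to 1.24), 0.08 for Clu (-0.68 to 0.83) and 0.07 for Cd44 (-0.41 to 0.56), with an adjusted p of 1.00 in each case. These intervals do not show equal levels, since for Havcr1, Lcn2 and Spp1 they include more than a doubling. With DOCA replicate 4 and spironolactone replicate 4 in the fit, the estimates of Lcn2, Spp1, Clu and Cd44 took the opposite sign, with Lcn2 at -0.88, and were not called.

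Against control, all 5 were called higher in spironolactone rats, where 14.7% of genes were. The log2 fold change ranged from 2.50 ± 0.33 (SE) for Clu (edgeR, adjusted p = 0.000137) to 6.06 ± 0.69 for Havcr1 (adjusted p = 7.45e-05). It was 4.87 ± 0.48 for Spp1, 4.65 ± 0.57 for Lcn2 and 3.11 ± 0.25 for Cd44.

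All 5 markers were called lower in finerenone than in spironolactone rats with the 14 libraries tested, where 6.84% of genes were called lower. Havcr1 showed the widest gap, with a log2 fold change of -2.53 ± 0.56 (SE) (edgeR, adjusted p = 0.0119). Spp1 fell by 1.80 ± 0.43 (adjusted p = 0.0166) and Lcn2 fell by 1.77 ± 0.46 (adjusted p = 0.0232). Clu fell by 1.31 ± 0.32 (adjusted p = 0.0157) and Cd44 fell by 1.21 ± 0.22 (adjusted p = 0.00174). The CPM of each marker was lower in all 4 finerenone than in all 4 spironolactone libraries, as for 11.8% of genes. Without spironolactone replicate 2, the library highest in Havcr1, only Cd44 stayed called, and the other 4 had adjusted p between 0.0511 and 0.109. With all 16 libraries 4 were called, and Lcn2 was not (adjusted p = 0.125). Its call was also lost without finerenone replicate 1 (adjusted p = 0.0542), without finerenone replicate 3 (0.0587) and in a fit of only these 2 groups (0.0831).

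**Figure D2:**
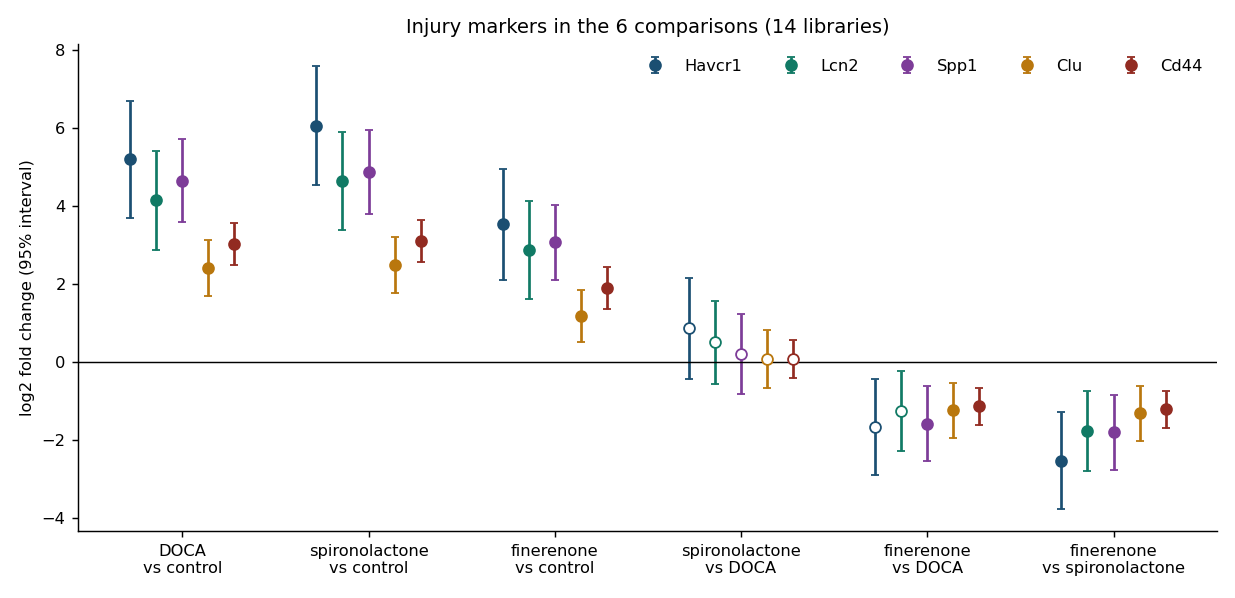
Log2 fold changes with 95% intervals from 1 edgeR fit of 14 libraries, for 5 markers in 6 comparisons, filled where called and open where not. All markers lie above 0 in the 3 comparisons with control, open circles span 0 in spironolactone against DOCA, and the estimates for finerenone lie below 0 against DOCA and spironolactone.

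To place each library between control (0) and DOCA replicates 1 to 3 (1), its log2 CPM was rescaled for each marker. The mean position of finerenone libraries was 0.70 ± 0.10 (SD, n = 4) for Havcr1, 0.68 ± 0.17 for Lcn2, 0.65 ± 0.14 for Spp1, 0.63 ± 0.10 for Cd44 and 0.49 ± 0.15 for Clu. On this log scale the finerenone libraries thus lay nearer to DOCA than to control on average for 4 markers, and about midway for Clu. Spironolactone libraries had mean positions from 1.00 ± 0.18 for Clu to 1.11 ± 0.11 for Havcr1. The order of the 5 genes was not tested, since they were measured in the same libraries.

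**Figure D3:**
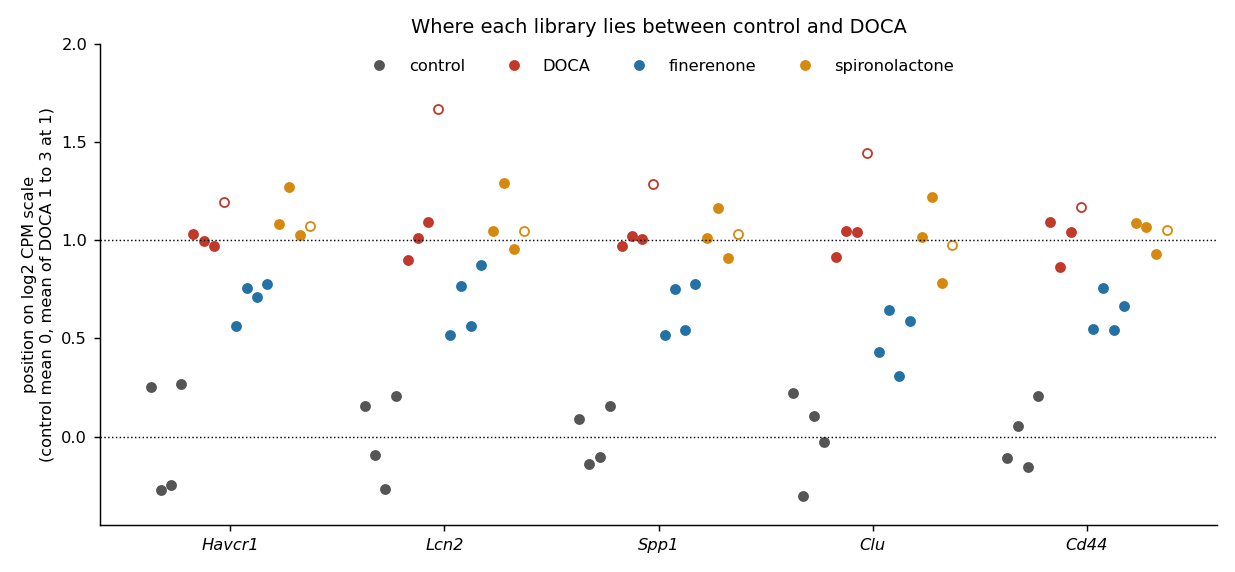
Position of each library on the log2 CPM scale from the control mean (0) to the mean of DOCA replicates 1 to 3 (1), by marker and group, with open circles for the 2 libraries outside the tests. Finerenone libraries lie between 0.31 and 0.87, and spironolactone libraries between 0.78 and 1.29.

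Within groups, some libraries were high or low in several markers at once, given here as a description. Other libraries shared no such order. Over DOCA replicates 1, 2 and 3, Havcr1 went from 282 to 246 and 220 CPM, whereas Lcn2 went from 49.6 to 68.7 and 87.7 CPM. Control replicate 3 had 241 CPM for Clu, above control replicates 2 and 4, but 1.40 CPM for Havcr1. DOCA replicate 4 had the highest CPM of its group for all 5 genes, and spironolactone replicate 2 that of its group for Havcr1, Lcn2, Spp1 and Clu but not Cd44. Among controls, replicates 2 and 3, which share code number 12, were the lowest for Havcr1, Lcn2 and Spp1. In finerenone, replicates 1 and 3 (code number 2) had lower CPM than replicates 2 and 4 (code number 3) for all 5 markers. For Spp1, those CPM were 1593 and 1737 against 3467 and 3808. When counts were summed within a code number, which leaves 2 or 3 sums a group, Cd44 was the 1 marker still called in finerenone against DOCA, control and spironolactone, and all 5 stayed called in DOCA against control.

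**Figure D4:**
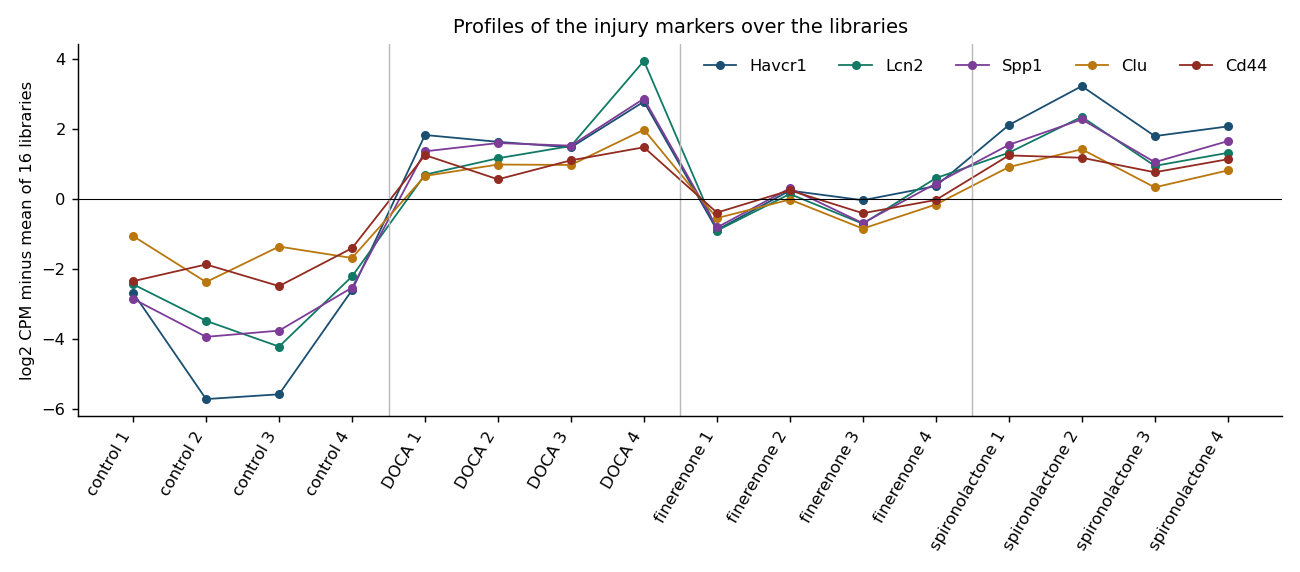
Log2 CPM of each marker minus its mean over 16 libraries, with vertical lines between the groups. Havcr1 has the widest range, with its lowest values in control replicates 2 and 3, and the lines of Lcn2 and Spp1 run closest together.

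The closeness of these profiles was measured as the root mean square difference of centred log2 CPM over the 16 libraries. Spp1 and Lcn2 were the nearest of all 14627 other genes to each other, at 0.41. Havcr1 was nearest to Spp1 (0.76) and Lcn2 (0.91). Values were centred but not scaled, so a difference in the size of change also sets genes apart, even with the same order of groups. By this measure not all members were close to each other. Counted from Clu, Havcr1 ranked 13928 among the other genes, at 1.67, and Clu and Cd44 lay 0.55 apart. Counted from Cd44, Havcr1 ranked 11644, at 1.52. Among genes with a known symbol, Adra1d, an alpha-1 adrenergic receptor, was the next nearest to Lcn2 (0.55), with medians of 0.55 TPM in control, 14.8 in DOCA, 4.26 in finerenone and 16.9 in spironolactone. C4b, a complement component, was the next nearest to Spp1 (0.50), with medians of 1.08, 32.8, 7.84 and 27.0 TPM in the same order. Clu was nearest to Tgif1 (0.34), a transcriptional repressor of TGF-beta signalling, and Pla1a (0.34), a phospholipase, with 1 gene without a symbol nearer still. Cd44 was nearest to Fn1 (0.33), which encodes fibronectin, and Tpbg (0.34), with 1 gene without a symbol nearer. Symbols were known only for genes that the study listed as changed in DOCA against control, so this choice of neighbours is not a free one.

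Ratios of 2 markers within a library do not depend on the scaling of libraries, and were compared over all 16 libraries by an exact 2-sided permutation test for 10 pairs in 3 comparisons, chosen after the values were seen. Of these 30 tests, 0 had an adjusted p under 0.05, and the smallest p that 4 against 4 libraries allow, 0.0286, adjusts to 0.143 here, so these tests could decide little for a single pair. The ranges follow as a description. Spp1 was 0.978 to 2.87 times as abundant as Clu by TPM in control and 7.59 to 9.58 times in DOCA. Havcr1 was 0.128 to 1.81 times as abundant as Cd44 in control and 2.40 to 5.39 times in DOCA. The ratio of Clu to Cd44 was 27.8 to 116.8 in control and 26.3 to 63.5 in DOCA. The ratio of Havcr1 to Spp1 was 0.00891 to 0.0147 in finerenone and 0.00886 to 0.0131 in DOCA. In spironolactone, Havcr1 was 0.113 to 0.170 times as abundant as Clu, against 0.0689 to 0.111 times in DOCA.

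Other genes of the same biology were taken from a list of the partners of these markers and of other genes of tubular injury. Of 11 integrin subunits and hyaluronan synthases listed as partners of osteopontin and CD44, 4 could be tied to an ID, as could 14 of 24 other injury genes, and 0 of 5 partners and receptors of lipocalin and clusterin. All of these came from the genes that the study listed as changed in DOCA against control, so the number that passed in that comparison is fixed by the choice and says nothing further. Among the integrins, Itgav, the alpha-v subunit, had medians of 7.63 TPM in control, 20.3 in DOCA, 6.75 in finerenone and 19.99 in spironolactone. It fell by 1.11 ± 0.22 (SE) on the log2 scale in finerenone against DOCA (edgeR, adjusted p = 0.00246), and its log2 fold change from control under finerenone was -0.17 (adjusted p = 0.710). Itga5, the alpha-5 subunit, had medians of 2.27, 7.40, 3.61 and 6.67 TPM in the same order and fell by 0.57 ± 0.17 under finerenone (adjusted p = 0.0238). For Itgb1 and Itgb6 the differences between finerenone and DOCA were -0.47 (adjusted p = 0.000601) and -0.43 (adjusted p = 0.0577), smaller than the fold required.

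Among the other injury genes, Timp1, an inhibitor of metalloproteinases, had medians of 11.2 TPM in control, 118 in DOCA, 29.3 in finerenone and 116 in spironolactone. It fell by 1.495 ± 0.226 (SE) on the log2 scale in finerenone against DOCA (edgeR, adjusted p = 0.000319). The keratins Krt8 and Krt18 and the filament protein Vim had log2 fold changes of -0.82 (adjusted p = 0.000193), -0.88 (adjusted p = 0.00550) and -0.82 (adjusted p = 0.000513) and were called. Krt8 had medians of 113 TPM in control and 134 in finerenone, with a log2 fold change of 0.11 between them (adjusted p = 0.672). Vcam1, an adhesion molecule, had a log2 fold change of -0.34 (adjusted p = 0.0965) in finerenone against DOCA, Cdkn1a, a cell cycle inhibitor, one of -0.31 (adjusted p = 0.632) and Pdgfb, a growth factor, one of -0.28 (adjusted p = 0.200). None of these 3 passed the test. Lgals3, a galectin, had a log2 fold change of -1.12 (adjusted p = 0.00308), the membrane-binding protein Anxa2 one of -0.92 (adjusted p = 0.00508), Cd24 one of -0.65 (adjusted p = 0.00104) and the complement component C3 one of -0.58 (adjusted p = 0.0416), and all 4 were called. For Timp2 (-0.47, adjusted p = 0.0141) the difference did not reach the fold required. Il34 (-0.23, adjusted p = 0.176) and Gdf15 (-0.21, adjusted p = 0.569) reached neither that fold nor the required adjusted p. Most of these genes, unlike Krt8, were still called higher in finerenone than in control. They were Timp1 (1.42, edgeR adjusted p = 0.00437), C3 (1.14, 0.00317), Pdgfb (0.94, 0.00162), Krt18, Anxa2, Lgals3, Vim, Cd24 and Vcam1, the last at 0.57 (0.0213). Cdkn1a, Gdf15, Il34 and Timp2 were not called in finerenone against control.

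Markers of other cell types are given beside these values. Only genes listed by the study as changed in DOCA against control could be tied to an ID, so this choice is not a free one. The summed level of the macrophage markers Csf1r, C1qa, Cd68 and Lyz2, of which 4 of 4 were tied to IDs, was 222 to 364 TPM in control, 728 to 1246 in DOCA, 463 to 530 in finerenone and 822 to 902 in spironolactone libraries. That of the fibroblast markers Col1a1, Col3a1 and Acta2, 3 of 3, was 42.1 to 70.7, 260 to 507, 103 to 162 and 221 to 355 TPM in the same order. These sums are of TPM, without the scaling of the fit. Over all genes, the median difference on log2(TPM + 1) was 0.42 in DOCA against control and -0.34 in finerenone against DOCA. In the fit those medians were 0.02 and -0.03. The fitted log2 fold changes of the macrophage markers in DOCA against control ran from 1.03 (C1qa) to 1.43 (Csf1r). In finerenone against DOCA, Csf1r (log2 fold change -0.91, edgeR adjusted p = 2.35e-05), C1qa (-0.56, 0.0459) and Cd68 (-0.55, 0.0224) were called lower. So were Col1a1 (-1.015, 0.00698) and Col3a1 (-1.11, 0.000378). The remaining markers of these lists, Lyz2 and Acta2, did not pass this test. Lyz2, which made up most of the macrophage sum, had a log2 fold change of -0.31 (edgeR, adjusted p = 0.170). Acta2 had one of -0.25 (adjusted p = 0.623), and its 27.3 to 73.9 TPM in finerenone overlapped the 56.5 to 128 TPM of DOCA. Ptprc, the 1 of 3 leukocyte markers tied to an ID, was at 2.29 to 3.21, 7.94 to 11.9, 4.16 to 6.52 and 10.4 to 15.1 TPM. It was called lower in finerenone than in DOCA, with a log2 fold change of -0.68 (edgeR, adjusted p = 0.00550). Neither of the neutrophil markers S100a8 and S100a9, of 2 listed, was tied to an ID. The part of these cells in the levels of Lcn2, Spp1 and Cd44, which macrophages or neutrophils also express, was not tested.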

How the data were processed

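Bulk RNA-Seq was performed on rat kidney RNA in 16 libraries, 4 per group. Per the study's methods, RNA was isolated with the RNeasy kit and strand-specific libraries were made with the NEBNext Ultra kit. Per the submitters' processing notes, reads were processed with Trim Galore 0.4.5, STAR 2.7.3a and RSEM, on rn6 (Rnor_6.0). The annotation is not given in the sources used here. The deposited estimated counts are RSEM values per gene, not scaled for depth, of which 3.14% were not whole. The deposited TPM values account for gene length and sum to the same total in each library, as the authors' RSEM run gave them. Where genes have close copies, shared reads may have been divided between them.

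Counts were rounded, and a gene needed more than 4 counts in 3 or more libraries to be kept. Groups were compared with edgeR 4.0.16 (R 4.3.3), by the quasi-likelihood test with TMM normalization, in 1 fit of 14 libraries with no block, and calls required a Benjamini-Hochberg adjusted p under 0.05 together with a log2 fold change of 0.5 or more in either direction, which follows the study. Adjustment was over all 14628 genes. Intervals of log2 fold changes are 95% intervals from the fold change, its F statistic and the degrees of freedom. P-values measure the spread between these libraries, since the labels do not name separate animals.

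Groups and replicate numbers came from the sample titles. The study excluded an outlier from each of the DOCA and spironolactone groups. Its table of 4 genes has 14 libraries, each equal in all 4 TPM values to 1 deposited library, and DOCA replicate 4 and spironolactone replicate 4 are not among them, so these were taken to be the excluded libraries. Another table of the study lists 1997 symbols, all found by exact equality of TPM in 7 libraries and 1996 of them at a single ID. It was used for symbols only. The members and the lists of other genes were chosen with earlier results of these data known. The genes named for likeness were, for each member, the 2 with a known symbol and the smallest root mean square difference of centred log2 CPM (prior count 2). Promoters are 250 bases before the start from the RefSeq table of GRCr8, used for sequence and not to place the counts, which use another build.

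Alternatives were RLE, upper quartile or no scaling beyond library size, other filters, limma 3.58.1 (voom on counts, or TPM on a log2 scale with a pseudocount of 1 or 0.1), DESeq2 1.42.0, edgeR's likelihood ratio test, all 16 libraries, only the groups compared, the replicate number as block, each library left out, sums by code number, and other thresholds. Floors of 3 counts cover counting error only, whereas intervals of fold changes include the spread between libraries.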

Additional observations from a re-analysis of the deposited data

Results flagged for a closer look

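Dixon's gap test was run on the CPM of 5 markers in 4 groups, 20 sets of 4 libraries. Chance alone would mark about 1 if the sets were independent. They are not, since the markers share libraries, and DOCA replicate 4 was already taken as an outlier. The test marked 4, which is given as a description. Havcr1 in spironolactone replicate 2 was at 742.6 CPM, against 276 to 343 in the other 3 libraries of its group. DOCA replicate 4 was marked for Lcn2 at 475.4 CPM, for Spp1 at 20520 CPM and for Clu at 2452 CPM, against 49.6 to 87.7, 7217 to 8503 and 980 to 1229 CPM in the other DOCA libraries. Havcr1 in the same library was at 545.7 CPM and Cd44 at 62.84 CPM.

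The 2 libraries outside the tests carried a signal above all 4 controls for all 5 markers. Beside the values of DOCA replicate 4 above, spironolactone replicate 4 had 333.8 CPM for Havcr1, 76.53 for Lcn2, 8829 for Spp1, 1093 for Clu and 49.51 for Cd44. The highest control values were 12.7 CPM for Havcr1, 6.37 for Lcn2, 483 for Spp1, 297 for Clu and 8.29 for Cd44. Spironolactone replicate 4 lay within the range of the other 3 spironolactone libraries for all 5 markers, and DOCA replicate 4 above that of the other DOCA libraries for all 5.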

How the results depend on the processing

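Under 34 alternatives, of which 30 were planned and 4 chosen after seeing the data (controls of code number 12 left out or alone, DOCA replicate 4 or spironolactone replicate 4 included), the 30 log2 fold changes of the 5 markers gave 1020 values. Of these, 931 kept direction and call, 52 lost the call, 21 gained it and 16 took the opposite sign, the last all in spironolactone against DOCA, where none was called. In DOCA against control and spironolactone against control all 5 stayed called under all 34. The number called in finerenone against DOCA, 3, became 5 with library size alone, limma-voom, limma on log2(TPM + 1) or log2(TPM + 0.1), all 16 libraries or DOCA replicate 4 included, and 1 with sums by code number, and ranged from 1 to 5 with a library left out. In finerenone against control, 5 became 3 with all 16 libraries, only the 2 groups compared or DOCA replicate 4 included, 1 with sums by code number and 2 without controls of number 12, and ranged from 3 to 5 with a library left out. In finerenone against spironolactone, 5 became 1 with sums by code number and ranged from 1 to 5 with a library left out. In spironolactone against DOCA, the opposite signs were -0.88 for Lcn2, -0.28 for Spp1, -0.32 for Clu and -0.04473 for Cd44 with all 16 libraries, -0.80, -0.27, -0.29 and -0.06003 with DOCA replicate 4 included, and -0.06638 for Clu and -0.02487 for Cd44 with sums by code number. With a library left out, Lcn2 ranged from -0.01684 to 0.77, Spp1 from -0.18 to 0.46, Clu from -0.23 to 0.31 and Cd44 from -0.10 to 0.22, and Havcr1 stayed positive, from 0.31 to 1.12. Sums by code number leave fewer samples. For the other changes the cause was not tested.

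Scaling moved the median of all genes' log2 fold changes in DOCA against control from 0.02 to 0.12 (upper quartile), 0.37 (library size alone), 0.42 (log2(TPM + 1)) and 0.53 (log2(TPM + 0.1)), and the share of called genes that were higher from 57.6% to 69.3%, 90.2%, 94.5% and 94.7%. In finerenone against DOCA the same settings moved it from -0.03 to -0.09, -0.29, -0.34 and -0.42, and the higher share from 44.0% to 33.5%, 10.9%, 5.44% and 5.36%. Fold changes under these scalings include that shift, also where the number of markers called went from 3 to 5. In DOCA against control the markers, at 2.43 or above, kept their direction under each.

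Replicate numbers are shared between groups. Of 19 pairs of same-numbered libraries 4 had a correlation of deviations over 0.1 (range -0.07 to 0.14). Pairs with different numbers were not measured for reference, so these values cannot decide whether same-numbered libraries share more than a number. With the replicate number as a block, the counts were 5 in DOCA against control, 3 in finerenone against DOCA, 0 in spironolactone against DOCA, 4 in finerenone against control, 5 in spironolactone against control and 4 in finerenone against spironolactone. Lcn2 gained its call in finerenone against DOCA (adjusted p = 0.0213), and Clu lost its calls in the 3 comparisons of finerenone (adjusted p = 0.0564, 0.106 and 0.0568).

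Depth limits the lowest values, which were Havcr1 in control replicates 2 and 3 with 8 and 10 counts, and Lcn2 in the same libraries with 16 and 10 counts.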
